A study of Mus musculus with 63 samples.

Results

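Lifr, Il6st, Jak1, Stat3, Socs3, Pim1 and Pim3 make up the core of the LIF receptor and STAT3 pathway in mouse pluripotent cells, and their transcripts were followed here through 22 RNA-seq libraries. The 7 genes were chosen by name as pathway genes, with earlier results of these data known. All 7 were found among the 47517 gene symbols of each count table. Leukaemia inhibitory factor (LIF) is a cytokine that binds LIFR, which pairs with the shared receptor subunit gp130 (encoded by Il6st). The receptor-bound kinase JAK1 then phosphorylates the transcription factor STAT3, which enters the nucleus and activates genes that hold embryonic stem cells in self-renewal. Socs3 is both a STAT3 target and an inhibitor that binds gp130 and JAK kinases, and Pim1 and Pim3 encode serine/threonine kinases that STAT3 also induces.

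The libraries belong to a study of YY1, a zinc finger transcription factor, in C57BL/6 mouse cells of 2 pluripotent kinds, embryonic stem (ES) cells in 2i and extended pluripotent stem (EPS) cells in LCDM, both serum-free media. LCDM is named after its components, of which LIF is the first, and the labels do not say whether the other media held LIF. Unmodified ES and EPS cells had 3 libraries each. Every other group had 2 libraries. EPS lines carried a short hairpin RNA, either control or against Yy1 (EPS-shCtrl and EPS-shYy1). ES lines carried an overexpression construct, either control or for Yy1 (ES-oeCtrl and ES-oeYy1). The last 4 groups bear the same 4 labels after 6 days in a medium named F4H. Cells grew on inactivated mouse embryonic fibroblasts or on Matrigel, and the labels do not say which was used for which library. The titles of the day 6 controls read shCtrl and oeCtrl, whereas their other labels say only control, so they may be cells without a construct. The labels do not say whether replicates came from separate cultures or how many clones stand behind a line, so the spread behind each p-value is that of these libraries and may be technical.

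The libraries held between 13672061 and 20782348 gene counts, and every member had enough counts to pass the filter on low counts in every comparison. Levels are in CPM (each count scaled to the library's total on genes), which are not divided by transcript length, so levels were compared between samples but not between genes. Log2 fold changes were scaled by TMM factors, which correct for differences in library composition, and so can differ from ratios of the CPM printed beside them. Without these factors the median over all genes moved by 0.13 between EPS-shCtrl and EPS, -0.13 for the day 6 hairpin, 0.15 between the day 6 control lines, 0.14 for the EPS-shCtrl response, -0.19 for the stage change of the hairpin effect and 0.14 for the origin change of the response, and by less than 0.1 elsewhere. The share of higher genes among those called moved from 50.4% to 37.0% for the day 6 hairpin, from 49.4% to 62.6% between the day 6 control lines and from 51.5% to 35.6% for the stage change of the hairpin effect. Yy1 stood at 134 CPM in both EPS-shCtrl libraries and 70.5 CPM in both EPS-shYy1 libraries, and at 120.4 and 124 CPM in ES-oeCtrl against 934 and 941 CPM in ES-oeYy1. On day 6 it stood at 129 and 123 CPM in the libraries labelled shCtrl and at 114 and 109.6 CPM in those labelled shYy1, and the groups did not overlap. The TMM-scaled log2 fold change was -0.03 ± 0.05 (adjusted p = 0.567), and scaled by gene-count totals alone it was -0.17 (adjusted p = 0.00231), against -0.99 and -0.93 before differentiation, so the label shYy1 went with little or no lowering of Yy1 on day 6. The day 6 ES-oeYy1 libraries held 331 and 324 CPM. Summed Y chromosome transcripts stood at 3.06 to 3.40 CPM in EPS-shCtrl against 155 to 158 CPM in EPS-shYy1, and at 111 to 131 CPM in ES-oeCtrl against 26.9 to 27.7 CPM in ES-oeYy1, so the lines compared differed by more than Yy1. The median gene of the X chromosome was also 0.83 higher on the log2 scale in EPS-shYy1 than in EPS-shCtrl. Cell line and Yy1 manipulation cannot be told apart. On day 6 the Y sums were 16.4 to 17.4 CPM in EPS-shCtrl and 169 to 176 CPM in EPS-shYy1. They were 101 to 105 CPM in day 6 ES-oeCtrl and 66.0 to 71.8 CPM in day 6 ES-oeYy1. Unmodified EPS cells held 14.4 to 25.8 CPM and unmodified ES cells 64.1 to 77.2 CPM. Whether day 6 and undifferentiated libraries of the same label came from the same line was not tested. Replicate 3 of both ES and EPS held more fibroblast RNA than its partners: the sum of 22 fibroblast genes was 5647 CPM against 3118 and 3337 in ES, and 1424 CPM against 529 and 535 in EPS. Its range over the hairpin and overexpression lines was 35.6 to 256 CPM before differentiation. The 10 pluripotency markers summed to 4348 to 7175 CPM in undifferentiated cells and to 289 to 666 CPM on day 6.

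The members lie on 5 chromosomes of GRCm38.p6: Lifr on chromosome 15 (7090610 to 7197489), Il6st on chromosome 13 (112464070 to 112506860), Jak1 on chromosome 4 (101151974 to 101265282), Stat3 on chromosome 11 (100886806 to 100939594), Socs3 on chromosome 11 (117966079 to 117970336), Pim1 on chromosome 17 (29490785 to 29496111) and Pim3 on chromosome 15 (88862194 to 88865726). Jak1 overlaps Raver2, which reached at most 31.8 CPM, and Pim1 overlaps the clone Gm26885, which reached at most 0.482 CPM. Whether the counting used strand is not given in the sources used here, so reads of overlapping genes may not be separable. All 7 members matched RefSeq's promoter table for this build, with 9 windows of 300 bases, since Lifr and Pim1 have more than 1 listed start. A STAT factor motif, TTCNNNGAA, was searched on both strands, as was a YY1 motif, GCCATNTT. The 3 members that STAT3 is known to induce are shown, the feedback inhibitor beside the kinases. Capitals mark the STAT motif, and each sequence runs from upstream to just past the listed start.
Socs3 (chr11:117969317-117969616, minus strand): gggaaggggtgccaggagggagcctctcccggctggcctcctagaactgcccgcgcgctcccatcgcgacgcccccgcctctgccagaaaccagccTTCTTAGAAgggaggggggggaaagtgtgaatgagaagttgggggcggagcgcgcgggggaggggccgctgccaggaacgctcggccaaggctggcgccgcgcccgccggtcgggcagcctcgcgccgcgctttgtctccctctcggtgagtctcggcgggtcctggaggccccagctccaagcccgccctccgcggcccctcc
Pim1 (chr17:29490535-29490834, plus strand): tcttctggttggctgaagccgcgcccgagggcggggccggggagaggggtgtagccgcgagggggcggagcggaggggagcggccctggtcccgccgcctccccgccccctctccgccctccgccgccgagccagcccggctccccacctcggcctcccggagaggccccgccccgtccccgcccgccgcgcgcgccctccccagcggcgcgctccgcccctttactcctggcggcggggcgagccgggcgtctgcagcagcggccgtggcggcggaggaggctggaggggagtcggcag
Pim3 (chr15:88861944-88862243, plus strand): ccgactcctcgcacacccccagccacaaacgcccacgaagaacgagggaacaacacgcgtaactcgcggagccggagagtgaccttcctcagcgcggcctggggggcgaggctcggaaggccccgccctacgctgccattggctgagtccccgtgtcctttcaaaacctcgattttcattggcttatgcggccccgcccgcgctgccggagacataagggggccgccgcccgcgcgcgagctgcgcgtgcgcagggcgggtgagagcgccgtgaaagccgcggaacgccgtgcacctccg
The Socs3 window held 1 STAT motif, at position -154 from the listed start, and it was the only member window with one. This Socs3 window lies wholly within the gene's span given above, whereas the Pim1 and Pim3 windows shown cross the start of theirs. The regions shown are therefore not alike, and the motif does not lie upstream of the whole Socs3 span. The STAT motif occurs in 8.30% of all 32851 promoter windows of this length, and the YY1 motif occurs in 6.05% of them and in none of the 9 member windows. No match says only that these letters are not in the window.

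Across the 10 groups the members fell into sets with different ranges. Lifr was highest in ES-oeYy1 (121 ± 13.2 CPM, SD, n = 2) and lowest in day 6 ES-oeCtrl (24.0 ± 1.51 CPM, n = 2), a ratio of 5.05. Socs3 had the widest range of the 7, from 196 ± 11.1 CPM in ES (n = 3) to 28.2 ± 1.78 CPM in day 6 ES-oeCtrl (n = 2), a ratio of 6.96. Stat3 spanned a ratio of 3.08, from 240.5 ± 2.81 CPM in ES-oeCtrl to 78.1 ± 1.56 CPM in day 6 ES-oeCtrl (n = 2 each). For these 3 genes the means of all 6 undifferentiated groups lay above those of all 4 day 6 groups, and day 6 ES-oeCtrl was the lowest group for each of them. Jak1 ran the other way, from 61.1 ± 3.39 CPM in EPS (n = 3) to 143 ± 5.81 CPM in the day 6 libraries labelled EPS-shYy1 (n = 2), a ratio of 2.34. Il6st varied least, from 103 ± 3.16 CPM in day 6 EPS-shCtrl (n = 2) to 154 ± 21.9 CPM in EPS (n = 3), a ratio of 1.499. Pim1 and Pim3 shared their ends: both were lowest in ES-oeYy1 (74.9 ± 1.65 and 86.0 ± 5.92 CPM, n = 2) and highest in EPS-shYy1 (258 ± 14.8 and 188 ± 12.1 CPM, n = 2), with ratios of 3.45 and 2.19.

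Neighbours in these orders often overlapped. The Lifr libraries of EPS-shCtrl, EPS, ES and ES-oeCtrl formed a chain in which each group overlapped the next, whereas ES-oeYy1 stood clear above it and EPS-shYy1 clear below it. For Stat3 the groups EPS, ES-oeYy1, ES and ES-oeCtrl overlapped in turn, and EPS-shCtrl and the 3 lowest day 6 groups stood clear of their neighbours. For Socs3 all 4 day 6 groups were clear of one another. Pim1 in EPS-shYy1 was clear of every other group, while its EPS libraries (92.9, 94.8 and 167 CPM) spanned every day 6 group and ES-oeCtrl and reached into ES. The Pim3 groups from EPS up to ES-oeCtrl overlapped in turn. In bulk RNA, fewer cells of a type and less RNA per cell cannot be told apart.

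**Figure D1:**
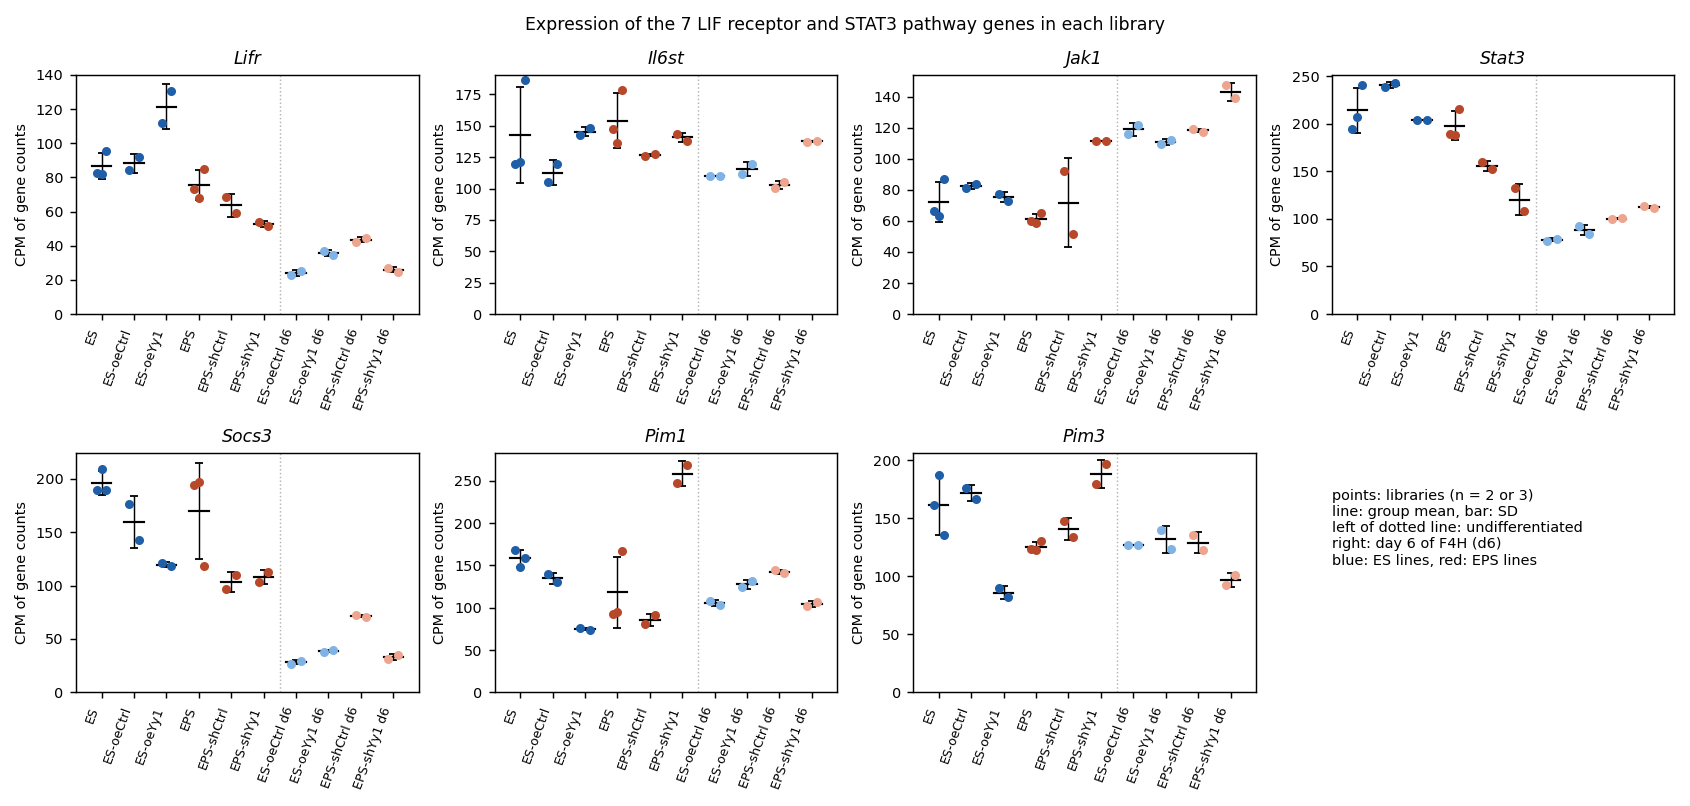
Level of each member in every library, in CPM of gene counts, with points for libraries, a line for the group mean and a bar for the SD (n = 2 or 3). Lifr, Stat3 and Socs3 sit lower to the right of the dotted line (day 6) than to the left of it, Jak1 sits highest in the day 6 libraries labelled EPS-shYy1, and Pim1 and Pim3 sit highest in EPS-shYy1 and lowest in ES-oeYy1.

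Setting EPS beside ES cells asked whether pathway transcripts differ between the 2 media and states. Of the 7 members 1 was called (Benjamini-Hochberg adjusted p under 0.05 over all genes tested, edgeR's quasi-likelihood test). Over all genes 30.6% were called, so members were not called more often than genes in general. In other fits the count of members ran from 0 to 3. The main fit, which gave 1, did not pair the libraries. With the replicate number as a block 2 members were called, and 30.6% is not the share of that fit. Pim3 stood at 162, 187 and 135 CPM in the 3 ES libraries and at 124, 123 and 129.96 CPM in the 3 EPS libraries. The groups did not overlap, and Pim3 was lower in EPS (log2 -0.30 ± 0.11, adjusted p = 0.0450). That call was lost with DESeq2 (adjusted p = 0.0522), with RLE size factors (0.0567), with the 6 compared libraries alone (0.122) and without any 1 library of replicates 1 and 2 or EPS replicate 3 (0.0809 to 0.235). Pim1 stood at 168, 148 and 159 CPM in ES and at 92.9, 94.8 and 167 CPM in EPS, so replicate 3 of EPS was as high as ES (log2 -0.38 ± 0.15, adjusted p = 0.0621). With the replicate number as a block Pim1 was called (log2 -0.41, adjusted p = 0.0155), and it was called without EPS replicate 3 (log2 -0.65, adjusted p = 0.000103).

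The receptor subunits and the signalling core were not called between EPS and ES: Lifr had a log2 fold change of -0.14 ± 0.10 (adjusted p = 0.302), Il6st 0.18 ± 0.13 (0.330), Jak1 -0.17 ± 0.15 (0.397), Stat3 -0.05 ± 0.09 (0.723) and Socs3 -0.13 ± 0.17 (0.617). Il6st stood at 119.7, 121 and 187 CPM in ES and at 148, 136 and 178 CPM in EPS. In both groups replicate 3, the library with the most fibroblast RNA, was the highest, and without replicate 3 of both groups Il6st was higher in EPS (log2 0.33, adjusted p = 0.00905), as 1 of 3 members then called with Pim1 (-0.66) and Pim3 (-0.41). The part of fibroblast RNA in these levels was not tested further. There were 63 other genes of the pathway, in lists of ligands, receptors, JAK and STAT proteins, inhibitors, the SHP2 and PI3K branch and STAT3 targets. Of these, 62 could be tested and 28 were called, 13 higher and 15 lower (median log2 -0.02, over all genes -0.005). The share called over all genes was 30.6%. Oncostatin M (Osm), a ligand that acts through gp130, stood at 11.5 against 28.7 CPM (log2 -1.25 ± 0.14, adjusted p = 3.62e-06). Jak3, a kinase of the cytokine receptors that share the common gamma chain, was lower (log2 -0.68), as were the TGF-beta inhibitor Smad7 (-1.49) and the NF-kappaB cofactor Bcl3 (-0.90). The kinase ERK1 (Mapk3) was higher (0.70), and so was the transcription factor Gbx2 (1.44).

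The control lines differed from the unmodified cells and from each other. Between EPS-shCtrl and EPS, 5 of 7 members were called and all 5 were lower in EPS-shCtrl, against 56.4% of all genes called. Socs3 stood at 97.0 and 110.1 CPM in EPS-shCtrl and at 195, 197 and 118 CPM in EPS, with every EPS-shCtrl library below every EPS library (log2 -0.86 ± 0.20, adjusted p = 0.00169). Pim1 (log2 -0.57 ± 0.17), Stat3 (-0.48 ± 0.11), Il6st (-0.41 ± 0.15) and Lifr (-0.38 ± 0.11) were the others. Between ES-oeCtrl and ES only Il6st was called, lower in ES-oeCtrl (log2 -0.38 ± 0.15, adjusted p = 0.0401), against 50.6% of all genes. That call was lost without ES replicate 3 (log2 -0.17, adjusted p = 0.207) or either ES-oeCtrl library (0.0576 and 0.275), with the compared libraries alone (0.0698) and with gene-count totals only (0.102). Socs3, whose groups did not overlap, was not called (log2 -0.35 ± 0.19, adjusted p = 0.141) but was without the count filter (0.0177), with the compared libraries alone (0.0220) and without replicate 3 of ES and EPS (0.00332). Between the control lines, EPS-shCtrl was lower than ES-oeCtrl for 4 of 7 members, against 40.4% of all genes: Pim1 (log2 -0.66 ± 0.18), Stat3 (-0.65 ± 0.11), Socs3 (-0.63 ± 0.21) and Lifr (-0.49 ± 0.12). These comparisons share libraries with one another and with those below. The sum of fibroblast genes was also lower in the control lines than in ES and EPS, and its part in these differences was not tested.

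Several of these calls rested on single libraries. Il6st in EPS-shCtrl against EPS was lost without EPS replicate 3 or either EPS-shCtrl library (adjusted p = 0.0590 to 0.143), Lifr without EPS-shCtrl replicate 2 (0.0606) and Pim1 without EPS-shCtrl replicate 1 (0.0992). With gene-count totals only, these 3 were not called (0.160, 0.0947 and 0.0559), and Stat3 and Socs3 were. Between the control lines, Socs3 was lost without EPS-shCtrl replicate 1 or ES-oeCtrl replicate 1 (0.169 and 0.173), Pim1 without EPS-shCtrl replicate 1 (0.0769) and Lifr without ES-oeCtrl replicate 2 (0.0511). Jak1 stood at 92.2 and 51.4 CPM in the 2 EPS-shCtrl libraries, so that without replicate 2 it was called higher than in EPS (log2 0.41, adjusted p = 0.0244) and without replicate 1 called lower than in ES-oeCtrl (log2 -0.65, adjusted p = 0.00437). Among the other pathway genes, 40 of 62 were called between EPS-shCtrl and EPS (18 higher, 22 lower). Between ES-oeCtrl and ES 35 were called (18 higher, 17 lower), and between the control lines 30 (11 higher, 19 lower). The shares over all genes were 56.4%, 50.6% and 40.4%. The CNTF receptor subunit Cntfr stood at 47.0 ± 8.22 CPM in EPS-shCtrl (n = 2) against 1.24 ± 0.143 in EPS (n = 3) and 1.27 ± 0.239 in ES-oeCtrl (n = 2), while Osm stood at 0.855 against 11.5 and 15.9 CPM.

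In undifferentiated EPS cells the Yy1 hairpin went with higher Pim1 and Jak1 and with lower Stat3 and Lifr. Of the 7 members 4 were called, against 28.5% of all genes. Pim1 stood at 81.0 and 91.0 CPM in EPS-shCtrl and at 248 and 269 CPM in EPS-shYy1, where both libraries were above every library of the other groups (log2 1.52 ± 0.18, adjusted p = 1.65e-05). The related kinase Pim3 stood at 147 and 134 CPM against 179.6 and 197 CPM, also without overlap, and did not pass (log2 0.36 ± 0.13, adjusted p = 0.0551). It was called with DESeq2 (adjusted p = 0.0436), with the 4 compared libraries alone (0.0393) and with gene-count totals only (0.0243). Socs3, at 97.0 and 110.1 CPM against 103 and 113 CPM, overlapped between the groups (log2 -0.01 ± 0.21, adjusted p = 0.989), so of these 3 STAT3 target genes only Pim1 was called.

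Upstream of them, Stat3 stood at 159 and 152 CPM in EPS-shCtrl and at 132 and 109 CPM in EPS-shYy1 (log2 -0.44 ± 0.12, adjusted p = 0.00942). Both hairpin libraries were below both controls, but the call was lost without EPS-shYy1 replicate 2 (log2 -0.30, adjusted p = 0.151). Lifr stood at 68.3 and 59.0 against 54.1 and 51.4 CPM, again with no overlap (log2 -0.33 ± 0.12, adjusted p = 0.0478). The Lifr call was lost with RLE size factors (0.0534), without the count filter (0.0924), with the compared libraries alone (0.0881), with gene-count totals only (0.148) and without any 1 of the 4 libraries (0.0760 to 0.216). Jak1 stood at 92.2 and 51.4 CPM in EPS-shCtrl and at 112 and 111 CPM in EPS-shYy1 (log2 0.58 ± 0.18, adjusted p = 0.0222). Its control libraries were far apart, and the call was lost without EPS-shCtrl replicate 2 (log2 0.25, adjusted p = 0.297), without either EPS-shYy1 library (0.0878 and 0.0900) and with the compared libraries alone (0.0859). Il6st stood at 126 and 127 CPM against 143 and 138 CPM and was not called (log2 0.09 ± 0.16, adjusted p = 0.727). The median gene on each of the members' 5 chromosomes lay between -0.08 and -0.01 in this comparison, unlike that of the X chromosome. The fibroblast sum was 245 to 256 CPM in EPS-shCtrl and 184 to 187 CPM in EPS-shYy1, and its part was not tested.

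Of the 62 other pathway genes tested with the hairpin, 20 were called, 9 higher and 11 lower (median log2 -0.01, over all genes -0.01). The share called over all genes was 28.5%. The STAT3 target list held 4 of 18 genes higher and 7 lower (median -0.24). Myc, a transcription factor of cell growth, fell from 65.4 ± 9.89 to 8.70 ± 1.65 CPM (n = 2 each, log2 -2.97 ± 0.22, adjusted p = 6.29e-08), and Gbx2 fell from 48.1 to 12.7 CPM (log2 -1.99). The adhesion molecule Icam1 rose (log2 0.82), as did Pias3, an inhibitor of STAT3 (log2 0.85). A receptor subunit and a ligand of the family moved far in opposite directions: Cntfr fell (47.0 to 9.68 CPM, log2 -2.34 ± 0.24, adjusted p = 3.09e-06) and Osm rose (0.855 to 7.74 CPM, log2 3.11 ± 0.24, adjusted p = 1.01e-07). The ligand Lif, which was picked for mention after its values were seen, rose from 4.60 ± 0.894 to 9.30 ± 0.715 CPM (n = 2 each, log2 0.94). In each of Cntfr, Myc, Osm and Gbx2, EPS-shCtrl also stood apart from unmodified EPS cells, which held 1.24, 10.96, 11.5 and 7.73 CPM.

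Overexpression of Yy1 in undifferentiated ES cells went with lower Pim1 and Pim3 and with higher Lifr. Here 3 of 7 members were called, against 32.0% of all genes. Pim3 stood at 176 and 167 CPM in ES-oeCtrl and at 90.2 and 81.8 CPM in ES-oeYy1, a fold of 0.4997 (log2 -1.001 ± 0.14, adjusted p = 3.4e-05). Pim1 stood at 139 and 129.9 CPM against 76.1 and 73.8 CPM (log2 -0.85 ± 0.18, adjusted p = 0.00195). For both kinases the ES-oeYy1 libraries were the lowest of the undifferentiated ones, and neither call was lost under any alternative run. Lifr stood at 84.4 and 92.0 CPM against 112 and 131 CPM, the highest Lifr values of the series (log2 0.46 ± 0.12, adjusted p = 0.00708), and was lost without ES-oeCtrl replicate 1 (log2 0.38, adjusted p = 0.0997) or ES-oeYy1 replicate 2 (log2 0.34, adjusted p = 0.131). Thus Lifr was lower with the hairpin and higher with the construct, and Pim1 higher with the hairpin and lower with the construct. Jak1 (0.58 and -0.13) and Pim3 (0.36 and -1.001) also lay on opposite sides of 0. Stat3 (-0.44 and -0.24), Il6st (0.09 and 0.36) and Socs3 (-0.01 and -0.42) lay on the same side in both. The comparisons share no library but were fitted together.

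The remaining members were not called with overexpression. Socs3 stood at 176 and 142 CPM in ES-oeCtrl and at 121 and 118 CPM in ES-oeYy1 (log2 -0.42 ± 0.21, adjusted p = 0.152). Stat3 stood at 239 and 242 against 203 and 204 CPM (log2 -0.24 ± 0.11, adjusted p = 0.115), and Il6st at 105 and 119.9 against 143 and 148 CPM (log2 0.36 ± 0.16, adjusted p = 0.0988). With the 4 compared libraries alone each of these 3 was called (adjusted p = 0.000802, 0.00338 and 0.000438). In that fit 8149 genes in all were called, against 5255. Jak1 stood at 80.9 and 83.8 against 77.6 and 73.1 CPM (log2 -0.13 ± 0.18, adjusted p = 0.618), while its overlapping neighbour Raver2 stood at 12.2 against 29.3 CPM (log2 1.26). Without a strand setting, the share of Raver2 reads that fell in the overlap was not tested.

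Among the other pathway genes 31 of 62 were called with overexpression, 8 higher and 23 lower (median log2 -0.33, over all genes 0.01). The share called over all genes was 32.0%. In the list of SOCS, PIAS and phosphatase inhibitors 2 of 14 were higher and 7 lower (median -0.56), and of the ligands 4 of 8 were lower and none higher. Myc rose from 1.14 ± 0.0411 to 19.0 ± 1.28 CPM (n = 2 each, log2 4.04 ± 0.28, adjusted p = 3.94e-08). The adaptor Gab1, which links gp130 to SHP2 and PI3K signalling, fell to 204 from 481 CPM (log2 -1.25 ± 0.12, adjusted p = 1.23e-06), and the kinase Akt1 to 34.4 from 75.3 CPM (log2 -1.13 ± 0.11, adjusted p = 1.17e-06). Jak2 fell from 19.2 to 6.91 CPM (log2 -1.48), Osm from 15.9 to 6.32 CPM (log2 -1.33) and the mRNA-destabilising factor Zfp36 from 22.1 to 4.28 CPM (log2 -2.36). Lif stood at 10.7 ± 1.85 CPM in ES-oeCtrl and 4.19 ± 0.452 CPM in ES-oeYy1 (n = 2 each, log2 -1.34). Myc, Osm and Lif thus changed in the opposite direction from that seen with the hairpin. These genes were singled out, and how many of the 62 changed in opposite directions was not counted. Unmodified EPS cells held 10.96, 11.5 and 17.1 CPM of Myc, Osm and Lif. EPS-shCtrl (65.4, 0.855 and 4.60 CPM) stood farther from these levels than EPS-shYy1 did (8.70, 7.74 and 9.30 CPM).

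**Figure D2:**
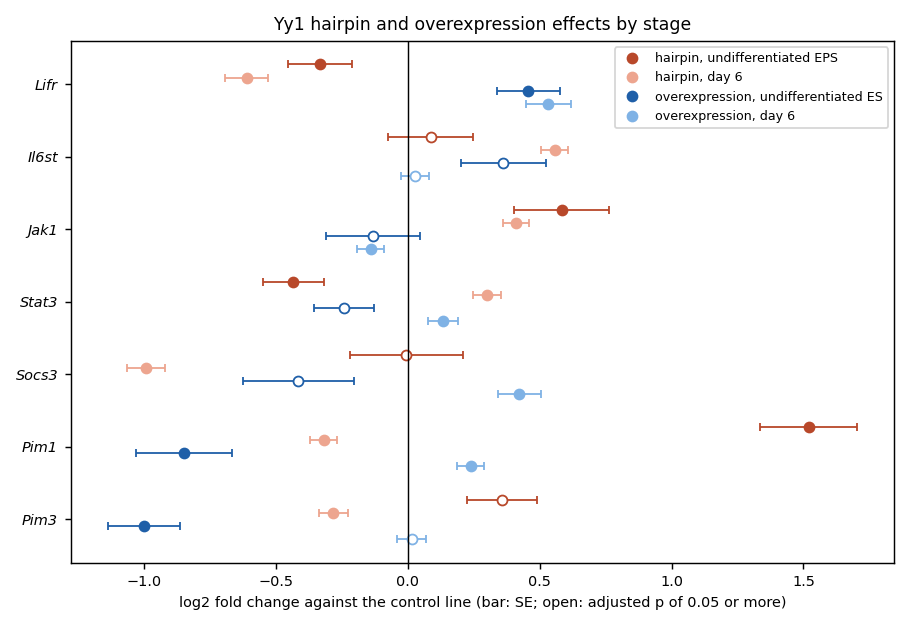
Log2 fold change of each member against its control line for the Yy1 hairpin and the Yy1 construct, before differentiation and on day 6, with the SE as a bar; filled points have an adjusted p under 0.05. Lifr lies left of 0 for the hairpin and right of 0 for the construct at both stages, while the Pim1 points of both manipulations change sides between stages. On day 6 the libraries labelled shYy1 held little or no less Yy1 than their controls.

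The day 6 response compared the libraries after 6 days in F4H with the undifferentiated cells of the same label. Whether these are the same line was not tested, and line below means label. By their sample numbers the undifferentiated libraries were submitted earlier, so stage and submission cannot be told apart. Marker sums moved with stage: 15 trophoblast markers summed to 230.4 to 399.5 CPM in the undifferentiated libraries and to 5981 to 13599 CPM on day 6. The sum of 21 primitive endoderm markers was 779 to 2454 CPM before and 3049.9 to 4861 CPM on day 6, and that of the fibroblast genes, 35.6 to 256 CPM in these lines before, was 1262 to 1492 CPM. Their part in the member changes was not tested. Lifr and Socs3 fell and Jak1 rose in all 4 lines. Members called numbered 7 of 7 in EPS-shCtrl (74.1% of all genes called), 5 in EPS-shYy1 (75.4%), 6 in ES-oeCtrl (73.0%) and 7 in ES-oeYy1 (72.7%), shares of the order of those over all genes. Lifr fell from 88.2 to 24.0 CPM in ES-oeCtrl (log2 -1.87 ± 0.10, adjusted p = 2.07e-13) and from 121 to 35.7 CPM in ES-oeYy1 (log2 -1.83 ± 0.10). In the EPS lines it fell from 63.7 to 43.5 CPM in EPS-shCtrl (log2 -0.68 ± 0.09, adjusted p = 1.08e-06) and from 52.7 to 25.9 CPM in EPS-shYy1 (log2 -0.97 ± 0.10). Every day 6 library was below every undifferentiated library for Lifr.

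Socs3 fell in all 4 lines, most in ES-oeCtrl. It went from 176 and 142 CPM to 26.9 and 29.4 CPM in ES-oeCtrl (log2 -2.50 ± 0.11, adjusted p = 8.72e-15). In ES-oeYy1 it went from 121 and 118 CPM to 37.8 and 39.7 CPM (log2 -1.69 ± 0.11, adjusted p = 5.17e-12). In EPS-shYy1 it went from 103 and 113 CPM to 30.9 and 34.8 CPM (log2 -1.67 ± 0.11, adjusted p = 6.15e-12). In EPS-shCtrl it kept 72.4 and 71.0 CPM from 97.0 and 110.1 CPM (log2 -0.67 ± 0.10, adjusted p = 3.58e-06). Stat3 fell from 240.5 to 78.1 CPM in ES-oeCtrl (log2 -1.62 ± 0.08, adjusted p = 9.49e-14), from 204 to 88.1 CPM in ES-oeYy1 (log2 -1.28 ± 0.08) and from 156 to 100.2 CPM in EPS-shCtrl (log2 -0.77 ± 0.08). In EPS-shYy1, where it was already low, Stat3 stood at 132 and 109 CPM before and 113 and 111 CPM after, with overlapping groups (log2 -0.05 ± 0.08, adjusted p = 0.616).

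Jak1, the kinase at the receptor, rose with log2 fold changes of 0.53 ± 0.15 in ES-oeCtrl (adjusted p = 0.00570), 0.49 ± 0.15 in ES-oeYy1 (0.0105), 0.60 ± 0.15 in EPS-shCtrl (0.00268) and 0.41 ± 0.15 in EPS-shYy1 (0.0212). The rise in EPS-shCtrl was not called with the 4 compared libraries alone (adjusted p = 0.0636), and that in EPS-shYy1 was lost without either undifferentiated EPS-shYy1 library or day 6 replicate 1 (0.0832 to 0.0989) and with gene-count totals only (0.0966). Raver2, which overlaps Jak1, fell in all 4 lines (log2 -0.48 to -2.23). Il6st moved little: it fell in EPS-shCtrl (log2 -0.44 ± 0.08) and ES-oeYy1 (-0.40 ± 0.08) and was not called in ES-oeCtrl (-0.03 ± 0.08, adjusted p = 0.736) or EPS-shYy1 (0.02 ± 0.08, adjusted p = 0.825).

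The Pim kinases went up in some lines and down in others. Pim1 rose in ES-oeYy1 from 76.1 and 73.8 CPM to 124 and 131 CPM (log2 0.70 ± 0.09, adjusted p = 2.23e-07) and in EPS-shCtrl from 81.0 and 91.0 CPM to 144 and 141 CPM (log2 0.59 ± 0.08, adjusted p = 1.94e-06). It fell in EPS-shYy1 from 248 and 269 CPM to 102 and 107 CPM (log2 -1.26 ± 0.08, adjusted p = 1.11e-11) and in ES-oeCtrl from 139 and 129.9 CPM to 108 and 103 CPM (log2 -0.35 ± 0.08, adjusted p = 0.000744). The 4 day 6 means of Pim1 lay within 104 and 143 CPM, where the undifferentiated ones of these lines spanned 74.9 to 258 CPM. Pim3 rose only in ES-oeYy1 (log2 0.55 ± 0.08) and fell in EPS-shYy1 (-0.91 ± 0.08), ES-oeCtrl (-0.43 ± 0.08) and EPS-shCtrl (-0.26 ± 0.08). The last of these was lost without day 6 EPS-shCtrl replicate 2 (adjusted p = 0.0838) and with gene-count totals only (log2 -0.13, adjusted p = 0.165), and its groups overlapped.

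**Figure D3:**
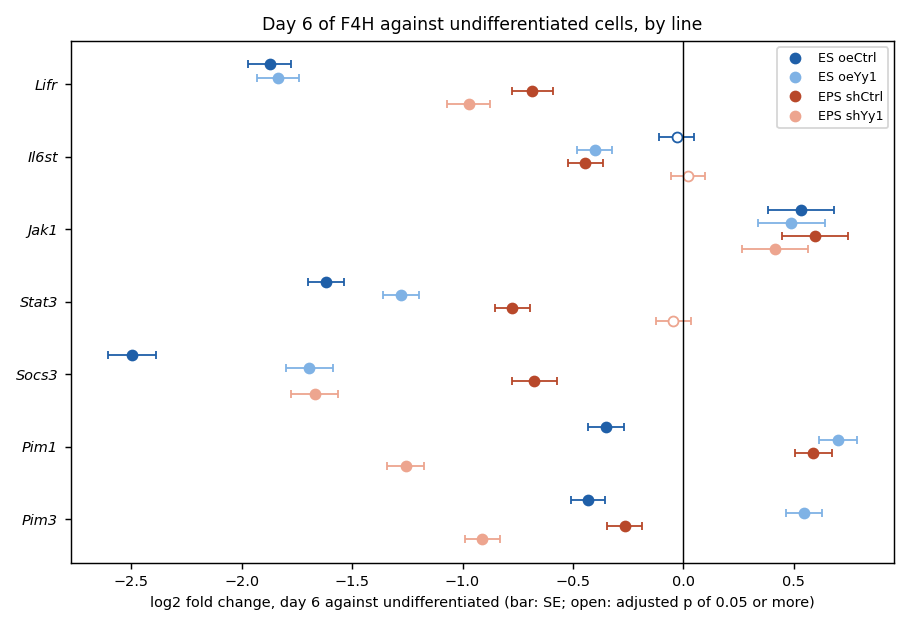
Log2 fold change of each member between day 6 of F4H and undifferentiated cells of the same label, with the SE as a bar. Filled points have an adjusted p under 0.05. Lifr and Socs3 lie left of 0 and Jak1 right of 0 in all 4 lines, and the ES-oeCtrl points of Lifr, Stat3 and Socs3 lie farthest left, at -1.87, -1.62 and -2.50.

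The response of the control lines differed by origin. A test of the difference itself, EPS-shCtrl against ES-oeCtrl, called 5 of 7 members, against 48.7% of all genes. The fall was smaller in EPS-shCtrl for Socs3 (difference in log2 fold change 1.82 ± 0.15, adjusted p = 2.39e-09), Lifr (1.19 ± 0.13, adjusted p = 3.09e-07) and Stat3 (0.84 ± 0.11, adjusted p = 2.45e-06). Pim1 rose in one and fell in the other (0.94 ± 0.12, adjusted p = 1.24e-06), and Il6st fell more in EPS-shCtrl (-0.41 ± 0.11, adjusted p = 0.00394). Jak1 (0.06 ± 0.21, adjusted p = 0.842) and Pim3 (0.17 ± 0.11, adjusted p = 0.228) were not called. The Jak1 difference was called upwards without EPS-shCtrl replicate 1 (0.50, adjusted p = 4.21e-05) and downwards without EPS-shCtrl replicate 2 (-0.23, adjusted p = 0.0474), and that of Pim3 was called with gene-count totals only (0.31, adjusted p = 0.0316). On day 6 itself, all 7 members were called between EPS-shCtrl and ES-oeCtrl, against 64.1% of all genes. Socs3 (log2 1.203 ± 0.07, adjusted p = 7.5e-22), Lifr (0.71 ± 0.08), Pim1 (0.29 ± 0.05) and Stat3 (0.21 ± 0.05) were higher in EPS-shCtrl, and Il6st (-0.25 ± 0.05), Jak1 (-0.16 ± 0.05) and Pim3 (-0.12 ± 0.05) lower on the TMM scale. The 3 lower calls depended on that scale: with gene-count totals only they were -0.10 (adjusted p = 0.0790), -0.0066 (0.916) and 0.02 (0.718), and the CPM of Jak1 and Pim3 overlapped between the groups. The calls of Jak1 and Pim3 also rested on single libraries: Jak1 was lost without ES-oeCtrl replicate 2 (adjusted p = 0.0613), and Pim3 with DESeq2 (0.111), without the count filter (0.0708) and without EPS-shCtrl replicate 2 or either ES-oeCtrl library (0.104 to 0.445). Trophoblast markers summed to 5981 to 5995 CPM in day 6 EPS-shCtrl and 13412 to 13599 CPM in day 6 ES-oeCtrl, and their part in these differences was not tested. The median gene of chromosome 17 was 0.20 higher in EPS-shCtrl, beside 0.29 for Pim1.

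Of the other pathway genes, those called over the 6 days numbered 48 of 60 in EPS-shCtrl (25 higher, 23 lower) and 50 in EPS-shYy1 (25 and 25). In ES-oeCtrl they numbered 50 (24 and 26) and in ES-oeYy1 51 (27 and 24). The shares over all genes were 74.1%, 75.4%, 73.0% and 72.7%, so wide calling was not particular to the pathway. Among the STAT3 targets, 3 transcription factors of naive pluripotency fell steeply in every line. Klf4 fell from 591 to 11.7 CPM in EPS-shCtrl (log2 -5.80 ± 0.10) and from 313 to 23.5 CPM in ES-oeCtrl (log2 -3.73 ± 0.09). Tfcp2l1 fell from 636 to 12.7 CPM and from 974 to 29.4 CPM (log2 -5.78 and -5.05), and Esrrb from 967 to 1.14 CPM and from 1065 to 20.7 CPM (log2 -9.84 and -5.69). In contrast Junb, a subunit of the AP-1 factor, rose from 19.6 to 126 CPM in EPS-shCtrl and from 22.2 to 215 CPM in ES-oeYy1 (log2 2.55 and 3.21). The ligand Lif rose in all 4 lines, to between 23.9 ± 2.15 CPM in EPS-shCtrl and 41.8 ± 0.377 CPM in ES-oeCtrl (n = 2 each, log2 2.22 and 1.98), while Lifr fell. Cntfr rose in ES-oeCtrl from 1.27 to 96.2 CPM (log2 6.23 ± 0.18, adjusted p = 7.44e-18) and from 1.04 to 77.0 CPM in ES-oeYy1 (log2 6.12 ± 0.19). Stat2, a factor of interferon signalling, fell from 124 to 14.3 CPM in ES-oeCtrl (log2 -3.12 ± 0.10, adjusted p = 4.61e-17) and stood at 62.1 and 62.2 CPM at the 2 stages in EPS-shCtrl, a difference between the lines of 2.98 ± 0.13 (adjusted p = 3.27e-13).

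On day 6, the libraries labelled EPS-shYy1 differed from EPS-shCtrl in all 7 members, against 61.3% of all genes, although Yy1 itself differed little between them. Socs3 stood at 30.9 and 34.8 CPM against 72.4 and 71.0 CPM, a fold of 0.502 (log2 -0.995 ± 0.07, adjusted p = 1.56e-18). Lifr stood at 26.95 and 24.8 against 42.4 and 44.6 CPM (log2 -0.61 ± 0.08, adjusted p = 1.54e-09). For both genes EPS-shCtrl was the day 6 group that stood high, and the libraries labelled EPS-shYy1 lay within the range of the ES lines. Pim1, at 102 and 107 against 144 and 141 CPM, was also lower (log2 -0.32 ± 0.05, adjusted p = 1.46e-07), and Pim3, at 92.6 and 101 against 135 and 122 CPM, likewise (log2 -0.28 ± 0.06, adjusted p = 2.26e-05). The rest of the core was higher: Il6st stood at 137 and 138 against 100.5 and 105 CPM (log2 0.56 ± 0.05, adjusted p = 9.17e-15), Jak1 at 147 and 139 against 119 and 117 CPM (log2 0.41 ± 0.05, adjusted p = 1.07e-10) and Stat3 at 113 and 111 against 99.6 and 101 CPM (log2 0.30 ± 0.05, adjusted p = 1.46e-06). No call was lost under the alternatives run. The median gene of chromosome 17, where Pim1 lies, was at -0.17, and Raver2, which overlaps Jak1, was lower (log2 -1.12). The marker sums moved as well, with trophoblast markers at 12566 to 12662 CPM against 5981 to 5995 CPM, and their part was not tested.

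Among the other pathway genes on day 6, 47 of 59 were called with the hairpin label, 26 higher and 21 lower (median log2 0.13, over all genes -0.01). The share called over all genes was 61.3%. All 6 other STAT factors were lower (median -0.99). Stat2 stood at 20.7 against 62.2 CPM (log2 -1.45 ± 0.08, adjusted p = 6.69e-24). Of the SHP2 and PI3K branch 7 of 9 were higher and 1 lower: Gab1 was higher, at 144 against 76.5 CPM (log2 1.05 ± 0.05, adjusted p = 8.84e-27), and Mapk3 lower, at 61.8 against 161 CPM (log2 -1.25 ± 0.06, adjusted p = 3.3e-28). The inhibitor Socs2 stood at 11.04 against 41.5 CPM (log2 -1.76), alongside Socs3. Of the STAT3 targets 9 of 18 were higher, among them Ier3 (log2 1.30), and 6 lower, among them Sp5 (log2 -1.07).

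The Yy1 construct went with higher Lifr, Socs3 and Pim1 on day 6. The day 6 ES-oeYy1 libraries differed from ES-oeCtrl in 5 of 7 members, against 41.9% of all genes. Lifr stood at 37.1 and 34.3 against 23.0 and 25.1 CPM (log2 0.53 ± 0.09, adjusted p = 6.51e-07) and Socs3 at 37.8 and 39.7 against 26.9 and 29.4 CPM (log2 0.42 ± 0.08, adjusted p = 1.78e-05). Pim1 stood at 124 and 131 against 108 and 103 CPM (log2 0.24 ± 0.05, adjusted p = 0.000133). These 3 were called under every alternative run. Each lay on the other side of 0 from its day 6 hairpin value. In that hairpin comparison Yy1 itself was little or not lowered (log2 -0.03 ± 0.05, adjusted p = 0.567). The 2 day 6 comparisons therefore do not set opposite changes of Yy1 side by side. Jak1, at 109.5 and 112 against 116 and 122 CPM, was lower (log2 -0.14 ± 0.05, adjusted p = 0.0222), but not with DESeq2 (0.0667) or gene-count totals only (0.117), nor without ES-oeCtrl replicate 2 or ES-oeYy1 replicate 1 (0.154 and 0.122). Stat3, at 92.0 and 84.3 against 77.0 and 79.2 CPM, was barely called (log2 0.13 ± 0.06, adjusted p = 0.0492), and the call was lost under 5 other settings and without 3 of the 4 libraries (adjusted p = 0.0533 to 0.436). Il6st (log2 0.03 ± 0.05, adjusted p = 0.726) and Pim3 (log2 0.01 ± 0.06, adjusted p = 0.874) were not called. Of the other pathway genes 38 of 59 were called, 18 higher and 20 lower (median log2 0.01, over all genes 0.0003), against 41.9% of all genes. Mapk3 was higher (0.71), and Gab1 (-0.49) and Tfcp2l1 (-1.15) were lower.

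Whether an effect changed between stages was tested directly, as the day 6 difference minus the undifferentiated difference, on the libraries used above. For the hairpin 5 of 7 members were called, against 41.5% of all genes. Pim1 changed most, from log2 1.52 to -0.32 (change -1.85 ± 0.12, adjusted p = 2.18e-10). Socs3 went from -0.01 to -0.995 (change -0.99 ± 0.15, adjusted p = 1.33e-05), Pim3 from 0.36 to -0.28 (-0.65 ± 0.11, adjusted p = 9.56e-05), Stat3 from -0.44 to 0.30 (0.73 ± 0.11, adjusted p = 2.41e-05) and Il6st from 0.09 to 0.56 (0.46 ± 0.11, adjusted p = 0.00188). Lifr (-0.29 ± 0.14, adjusted p = 0.0960) and Jak1 (-0.18 ± 0.21, adjusted p = 0.532) were not called, though without EPS-shCtrl replicate 1 both were (adjusted p = 0.0146 and 6.5e-07), and Lifr was with gene-count totals only (-0.48, adjusted p = 0.00919). Since the difference in Yy1 was smaller on day 6 (change 0.95 ± 0.10, adjusted p = 1.67e-07), the 2 stages do not compare like depletion.

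For the construct 5 of 7 were called, against 37.6% of all genes. Here too the difference in Yy1 was smaller on day 6, at log2 1.38 against 2.94 before (change -1.60 ± 0.10, adjusted p = 1.56e-10). The 2 stages therefore do not compare like overexpression. Pim1 went from log2 -0.85 to 0.24 (change 1.05 ± 0.12, adjusted p = 6.86e-07), Pim3 from -1.001 to 0.01 (0.98 ± 0.11, adjusted p = 9.36e-07) and Socs3 from -0.42 to 0.42 (0.80 ± 0.15, adjusted p = 0.000226). Stat3 (0.34 ± 0.11, adjusted p = 0.0208) and Il6st (-0.37 ± 0.11, adjusted p = 0.0118) were also called, but Stat3 was lost without ES-oeCtrl replicate 2, either day 6 ES-oeCtrl library or day 6 ES-oeYy1 replicate 1 (adjusted p = 0.0518 to 0.0885), and Il6st without ES-oeCtrl replicate 1, ES-oeYy1 replicate 2 or day 6 ES-oeYy1 replicate 1 (0.0686 to 0.0853). The Lifr effect was 0.46 before and 0.53 on day 6 (change 0.04 ± 0.13, adjusted p = 0.861), and that of Jak1 -0.13 and -0.14 (change -0.04 ± 0.21, adjusted p = 0.910). Among the other pathway genes 26 of 60 changed with the hairpin (14 up, 12 down) and 34 of 60 with the construct (24 up, 10 down). The shares over all genes were 41.5% and 37.6%. Myc had a change of 3.21 ± 0.19 with the hairpin and -3.74 ± 0.28 with the construct, since it stood between 66.0 and 138 CPM in all 4 day 6 groups.

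**Figure D4:**
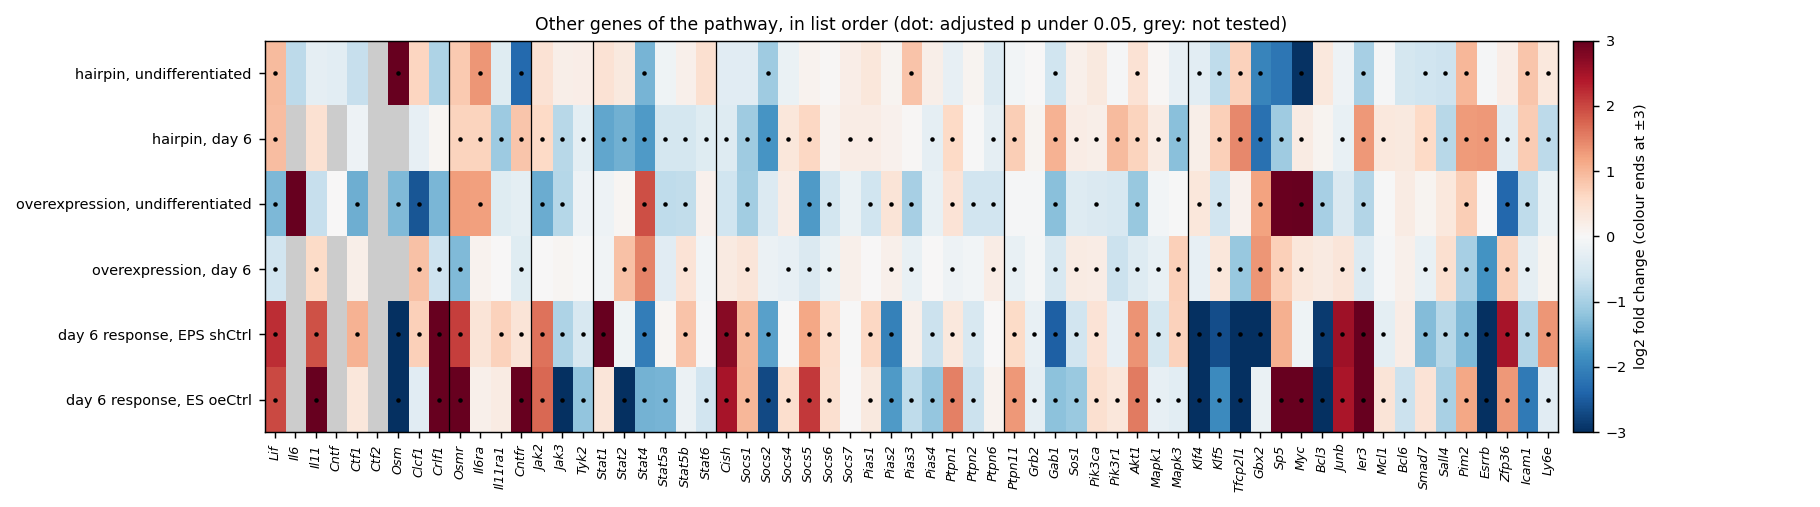
Log2 fold changes of the 63 other pathway genes (columns, in list order with lines between lists) in 6 comparisons (rows), on a colour scale that ends at -3 and 3; a dot marks an adjusted p under 0.05 and grey a gene not tested. The other STAT factors are all blue for the day 6 hairpin, Lif, Osm and Jak2 are blue for overexpression in undifferentiated ES cells, and Klf4, Tfcp2l1 and Esrrb are dark blue in both day 6 responses.

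Over the 10 group means of log2 CPM, Lifr, Stat3 and Socs3 followed one another closely, with Pearson correlations of 0.92 (Lifr and Socs3), 0.91 (Lifr and Stat3) and 0.89 (Stat3 and Socs3). Jak1 ran against all 3 (-0.81 to -0.83), and Pim1 went with Pim3 (0.78) more than with Socs3 (0.19). These values describe 10 points that share lines, media and the day 6 step. Among 10595 other genes, those most like Lifr were Mgarp (0.98), Clcn6 (0.98) and D10Jhu81e (0.97), those most like Stat3 included Zfp119b (0.97) and March7 (0.97), and those most like Socs3 were Haus1 (0.99), Anapc7 (0.98) and Spc24 (0.98).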

How the data were processed

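RNA-seq of 22 libraries was used, and the other 41 of the series' 63 samples were not analysed here. The deposited tables hold raw read counts per gene symbol made by the authors, with no normalization. Bowtie2 2.3.2, CASAVA and the builds GRCm38.p6 and mm10 stand in the submitters' processing notes, without roles, and the counting tool and strand setting are not given in the sources used here. Summary lines that name no gene (no feature 5.61% to 8.62%, ambiguous 3.70% to 5.32%, not unique 5.45% to 6.66%) were left out. CPM was each count over the library's gene counts. Fold changes used TMM normalization in edgeR 4.0.16 (R 4.3.3, limma 3.58.1), so they can differ from ratios of CPM.

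Genes passing filterByExpr were tested with the robust quasi-likelihood F-test, fitted over all 14 undifferentiated libraries (16440 genes), all 8 day 6 libraries (15927) or all libraries of the 4 lines compared across stages (17207). P-values were adjusted by Benjamini-Hochberg over all genes tested, and called means an adjusted p under 0.05. Standard errors were the absolute log2 fold change over the square root of F. The procedure was tested on simulated data.

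The 7 genes and the pathway lists were chosen with earlier results of these data known. From the 63 other pathway genes, up to 6 called genes of smallest p were named per comparison, and any other was picked after its values were seen. Genes most like a member were ranked by Pearson correlation over 10 group means of log2 CPM (prior count 2, mean of at least 5 CPM). One gene of that ranking is not reported here. Alternatives were DESeq2 1.42.0, RLE size factors, no count filter, only the libraries compared, a replicate block and each library left out. Leaving out replicate 3 of both ES and EPS, and scaling by gene-count totals only, without TMM factors, were chosen after seeing the data. ES and EPS libraries of the same number deviated together (r = 0.245, 0.322 and 0.546 over 11072 genes). This pairing was seen in the data and is not in the labels. The main fits ignore it, and only the replicate block takes it into account.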

Additional observations from a re-analysis of the deposited data

Results flagged for a closer look

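Differences between effects were tested directly with edgeR's quasi-likelihood test over all genes, and 15 of 21 member values passed at an adjusted p under 0.05. Over all genes 41.5% passed for the stage change of the hairpin effect, 37.6% for that of the construct effect and 48.7% for the origin change of the response. The effect of the hairpin differed between day 6 and undifferentiated EPS cells for Il6st (0.46 ± 0.11 on the log2 scale), Stat3 (0.73 ± 0.11), Socs3 (-0.99 ± 0.15), Pim1 (-1.85 ± 0.12) and Pim3 (-0.65 ± 0.11). Yy1 itself was not called between the day 6 libraries labelled EPS-shYy1 and their controls on the TMM scale. With the construct, the Yy1 difference was smaller on day 6 than before (change -1.60 ± 0.10). The effect of the Yy1 construct differed between the stages in ES cells for Il6st (-0.37 ± 0.11), Stat3 (0.34 ± 0.11), Socs3 (0.80 ± 0.15), Pim1 (1.05 ± 0.12) and Pim3 (0.98 ± 0.11). The day 6 response differed between EPS-shCtrl and ES-oeCtrl for Lifr (1.19 ± 0.13), Il6st (-0.41 ± 0.11), Stat3 (0.84 ± 0.11), Socs3 (1.82 ± 0.15) and Pim1 (0.94 ± 0.12). The hairpin and origin differences share the EPS-shCtrl libraries, and the construct and origin differences share those of ES-oeCtrl.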

How the results depend on the processing

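The number of members called between EPS and ES went from 1 to 0 with DESeq2, RLE size factors or only the libraries compared, to 2 without the count filter, and to 3 without replicate 3 of both groups. For ES-oeCtrl against ES it went from 1 to 2 without the filter, and to 2 with only the libraries compared or without replicate 3 of both ES and EPS, where Il6st was no longer among them. Overexpression in undifferentiated cells went from 3 to 6 with only the libraries compared, where 8149 genes in all were called against 5255, and on day 6 from 5 to 3 with DESeq2. With gene-count totals only it was 2 in place of 5 for EPS-shCtrl against EPS and 0 in place of 1 for ES-oeCtrl against ES. Between the day 6 control lines it was 4 in place of 7. The number over all genes moved too: without 1 library of ES or EPS it ran from 3914 to 5327 between them, against 5033. Where no such number is given, a count in this section cannot be read as a result about the members. Leaving out single libraries gave 0 to 2 members for EPS against ES, 3 to 5 for EPS-shCtrl against EPS, 1 to 3 for the undifferentiated hairpin (2571 to 4853 genes in all, against 4682), 0 to 1 for ES-oeCtrl against ES, 3 to 5 for day 6 overexpression and 3 to 5 for the stage change of the construct effect. It gave 3065 to 3614 genes in all for undifferentiated overexpression.

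Values that changed sign were not called in any of the fits that changed it, with 1 exception: the origin difference of Jak1, which ran from -0.23 (adjusted p = 0.0474) to 0.50 (adjusted p = 4.21e-05) as single libraries were left out. Without replicate 3 of ES and EPS, EPS against ES gave 0.0637 for Socs3 and 0.0012 for Stat3, and ES-oeCtrl against ES gave 0.0229 for Lifr and -0.0999 for Pim3. The undifferentiated hairpin value of Socs3 was 0.00059 with DESeq2, 0.00076 with RLE size factors and 0.0165 with only the libraries compared. With only the libraries compared, Il6st in the ES-oeCtrl day 6 response was 0.0037 and Pim3 in ES-oeCtrl against ES -0.0027. With gene-count totals only, signs turned for Il6st in the EPS-shYy1 response (-0.0325), Socs3 with the undifferentiated hairpin (0.0617), Lifr in ES-oeCtrl against ES (0.0221), Pim3 between the day 6 control lines (0.0238) and Jak1 in the stage change of the construct effect (0.0272). Leaving out single libraries gave -0.27 to 0.11 for Socs3 and -0.109 to 0.0191 for Stat3 in EPS against ES, -0.34 to 0.41 for Jak1 in EPS-shCtrl against EPS and -0.65 to 0.0961 between the control lines. It gave -0.18 to 0.11 for Stat3 in the EPS-shYy1 response, -0.14 to 0.14 for Socs3 with the undifferentiated hairpin and -0.136 to 0.0810 for Il6st in the ES-oeCtrl response. In ES-oeCtrl against ES the ranges were -0.111 to 0.0493 for Lifr and -0.0986 to 0.16 for Pim3, and in day 6 overexpression -0.0246 to 0.0792 for Il6st and -0.0776 to 0.103 for Pim3. The stage change ran from -0.0855 to 0.0321 for Jak1 and -0.0398 to 0.19 for Lifr with the construct, and from -0.64 to 0.0957 for Jak1 with the hairpin. The cause was not tested.

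The replicate block called 2 members between EPS and ES. Other comparisons share only 2 numbers, whose deviations correlated between -0.18 and 0.12, so the block there is no pairing. In those it turned Pim3 to -0.0520 (EPS-shCtrl against EPS) and, in ES-oeCtrl against ES, Lifr to 0.0216 and Pim3 to -0.0365. The block called Pim3 with the undifferentiated hairpin (0.36, adjusted p = 0.0120) and between the control lines (0.0231), Socs3 in ES-oeCtrl against ES (0.0112) and Il6st with overexpression (0.0101), and lost Il6st in ES-oeCtrl against ES (0.0630) and Stat3 in day 6 overexpression (0.0594). With a library left out of a pair, the one left is assumed to vary like the others.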

Other observations

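Between the control lines on day 6, 44 of 59 other pathway genes were called (64.1% of all genes), 18 higher and 26 lower in EPS-shCtrl than in ES-oeCtrl. Of the 6 other STAT factors 5 were higher and none lower (median log2 0.94, over all genes 0.02), with Stat2 at 62.2 against 14.3 CPM (log2 1.98 ± 0.08, adjusted p = 3.66e-29). In the SHP2 and PI3K branch 1 of 9 was higher and 5 lower: Mapk3 stood at 161 against 65.6 CPM (log2 1.15) and the adaptor Gab1 at 76.5 against 205 CPM (log2 -1.57). Pim2, the third Pim kinase, stood at 6.64 against 26.3 CPM (log2 -2.13), and Smad7 at 49.7 against 103 CPM (log2 -1.20).

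The 6-day response of the control lines differed for 37 of 60 other pathway genes (48.7% of all genes), 16 upwards and 21 downwards in EPS-shCtrl relative to ES-oeCtrl. Jak3 (difference in log2 fold change 2.31 ± 0.12) and the surface protein gene Ly6e (1.66 ± 0.10) were among the former, and Klf4 (-2.07 ± 0.12), Cntfr (-5.84 ± 0.22) and Myc (-6.67 ± 0.25) among the latter. Before differentiation ES-oeCtrl already differed from unmodified ES cells in Stat2 (123.9 against 28.9 CPM, log2 2.05), Jak3 (321 against 135 CPM, log2 1.19), Klf5 (266 against 89.97 CPM, log2 1.51) and Bcl3 (99.6 against 31.3 CPM, log2 1.61). The oncostatin M receptor Osmr stood at 0.334 against 18.3 CPM and Ier3 at 5.11 against 25.8 CPM (log2 -2.39), beside fibroblast sums of 35.6 to 43.3 CPM against 3118 to 5647 CPM, whose part was not tested.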
